A study of Mus musculus with 18 samples.

Results

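The transcripts of 9 genes that carry adrenergic, natriuretic peptide and cyclic AMP signals in fat cells were examined in the adipose depots of mice lacking caspase-6. They were taken by symbol from the 25124 genes listed in each count table, and all 9 were found in all 3 tables with the same counted transcript. Adrb1, Adrb3, Adra1a and Adra2a encode adrenoceptors, Npr1 a natriuretic peptide receptor, Adcy3 an adenylyl cyclase, Pde3b a phosphodiesterase, and Prkar2b and Prkaca subunits of protein kinase A. The study asked how caspase-6 acts on fat storage and energy use in obesity. Poly(A) RNA was sequenced from inguinal (iWAT) and epididymal (eWAT) white fat and from brown fat (BAT) of male mice on a C57BL/6J background, either wild type (WT) or carrying a global deletion of Casp6 (C6KO). All mice, the WT littermates included, were kept for 12 weeks on a high fat diet (HFD, 60% of calories as fat), begun at 10 to 14 weeks of age. Each of the 6 groups held 3 libraries, 18 in all, which the labels call biological replicates without saying which animal each came from. There was no chow-fed group, and in a global knockout every cell type of the depot lacks the gene.

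Noradrenaline from sympathetic nerves is the main signal for fat breakdown in adipocytes. It binds β-adrenoceptors, whose stimulatory G protein switches on an adenylyl cyclase, and the cyclic AMP made there frees the catalytic subunits of protein kinase A from their regulatory subunits. The kinase then acts on perilipin and hormone-sensitive lipase, and in brown adipocytes it also drives heat production through Ucp1. Signals through α2-adrenoceptors lower cyclic AMP, the phosphodiesterase made from Pde3b breaks it down when insulin acts, and natriuretic peptides reach the same lipase through cyclic GMP and the receptor encoded by Npr1.

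The counted transcripts were placed on mm10, which is the GRCm38 assembly. Adrb1 (NM_007419) runs from 56722117 to 56725150 on chromosome 19, and Adra2a (NM_007417) lies on the same chromosome from 54045259 to 54048982. Adrb3 (NM_013462) runs from 27225776 to 27229588 and Prkaca (NM_008854) from 83972978 to 83996442, both on chromosome 8. Adcy3 (NM_001159536) runs from 4133397 to 4213524 and Prkar2b (NM_011158) from 31958471 to 32061277, both on chromosome 12. Adra1a (NM_013461) lies on chromosome 14 from 66635251 to 66733462, Npr1 (NM_008727) on chromosome 3 from 90450592 to 90465866, and Pde3b (NM_011055) on chromosome 7 from 114415254 to 114537937. Adrb3, Npr1 and Prkar2b are on the minus strand and the other 6 are on the plus strand. Values are reads on the exons of these transcripts, so isoforms were not told apart. A shorter Adcy3 transcript has been described in brown fat and would be counted together with the long one wherever exons are shared. In the GENCODE annotation, Cenpo on the opposite strand shares 1380 bases with the Adcy3 exons, Gm45470 shares 545 with Adrb3 and Gm16048 shares 402 with Npr1. Whether counting used the strand is not given in the sources used here, so reads from these partners cannot be told apart from those of Adcy3, Adrb3 and Npr1.

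The RefSeq promoter table (GRCm38.p6) held 6 of the 9 genes, Adrb1, Adra2a, Npr1, Adcy3, Prkar2b and Prkaca, at the start of the counted transcript. For Adrb1 and Prkaca the bases just after that start were not found in a GENCODE vM21 transcript of the gene, so their orientation rests on the RefSeq strand alone. The 250 bases before the start are shown for Adrb1, Prkar2b and Adcy3, the genes with the smallest p of the 9 for C6KO against WT in iWAT, eWAT and BAT, respectively. They lie at chr19:56721867-56722116 on the plus strand, chr12:32061278-32061527 on the minus strand and chr12:4133147-4133396 on the plus strand. Capitals mark TGACG, the core of the cyclic AMP response element bound by CREB, and GGGCGG, the GC box bound by SP1, each searched on both strands, so that CGTCA and CCGCCC are the same letters read from the other strand.
Adrb1: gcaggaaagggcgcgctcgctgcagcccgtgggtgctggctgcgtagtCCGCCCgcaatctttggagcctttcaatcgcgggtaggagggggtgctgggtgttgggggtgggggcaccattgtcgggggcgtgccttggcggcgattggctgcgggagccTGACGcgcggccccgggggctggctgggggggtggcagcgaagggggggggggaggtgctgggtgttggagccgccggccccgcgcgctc
Prkar2b: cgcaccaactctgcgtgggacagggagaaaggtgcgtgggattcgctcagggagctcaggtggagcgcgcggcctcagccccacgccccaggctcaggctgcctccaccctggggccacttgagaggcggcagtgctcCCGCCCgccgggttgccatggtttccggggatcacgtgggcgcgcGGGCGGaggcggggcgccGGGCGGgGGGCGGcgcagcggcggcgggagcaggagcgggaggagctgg
Adcy3: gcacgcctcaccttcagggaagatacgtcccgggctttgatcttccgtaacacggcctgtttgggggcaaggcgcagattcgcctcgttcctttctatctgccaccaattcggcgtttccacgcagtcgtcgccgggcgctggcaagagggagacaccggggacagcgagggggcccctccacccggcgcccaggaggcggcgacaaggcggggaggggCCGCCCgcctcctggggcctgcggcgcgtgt
The full element TGACGTCA was in none of the 6 promoters and in 1.55% of the 32817 promoters of the table. TGACG occurred 1 time in Adrb1 and Adra2a and 2 times in Prkaca, and its letters were not in the window of Npr1, Adcy3 or Prkar2b. Over all promoters 17.7% held it. GGGCGG was in all 6, with 4 matches in Prkar2b, 2 in Npr1 and Prkaca and 1 in each of the others, and in 32.7% of all promoters. The nuclear receptor motif AGGTCA was in none of the 6 and in 14% of all, and CACGTG was in Adra2a, Prkar2b and Prkaca and in 6.02% of all. These matches describe letters only and no binding was measured.

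Total counts ran from 7803108 to 12428683 in BAT libraries, from 16717201 to 19139694 in eWAT libraries and from 16506034 to 19043523 in iWAT libraries. Casp6 levels checked the labels. They were 16.2 to 20.3 CPM (counts scaled to the size of the library) in WT and 5.55 to 8.09 in C6KO iWAT, 17.4 to 20.8 and 3.85 to 6.08 in eWAT, and 11.9 to 21.2 and 3.32 to 7.61 in BAT, so the genotypes did not overlap in any depot. Casp6 fell in eWAT (log2 -1.85, adjusted p = 0.0132, edgeR), and its log2 differences were -1.51 in iWAT (adjusted p = 0.0751) and -1.501 in BAT (adjusted p = 0.0671). Reads from exons outside the deleted stretch would still be counted. Ucp1, the defining brown fat transcript, lay between 4468 and 11033 CPM in BAT and at or under 5.53 CPM in both white depots. The summed CPM of 12 macrophage markers lay lower in C6KO, between 526 and 1552 against 2110 and 2407 in WT iWAT, between 4488 and 5923 against 7135 and 8889 in eWAT, and between 345 and 520.3 against 852 and 1156 in BAT. The sum of 10 adipocyte markers was 42753 to 46127 in WT and 54161 to 62564 in C6KO iWAT, 13765 to 16241 and 19348 to 27263 in eWAT, and 23159 to 31422 and 23270 to 28507 in BAT. One library stood apart, BAT WT 2, with 33341 CPM of 8 skeletal muscle markers against 43.1 to 6633 in the other BAT libraries and with the lowest brown adipocyte sum in BAT, 6833 CPM. In bulk tissue, fewer cells of a type and less RNA per cell cannot be told apart.

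**Figure D1:**
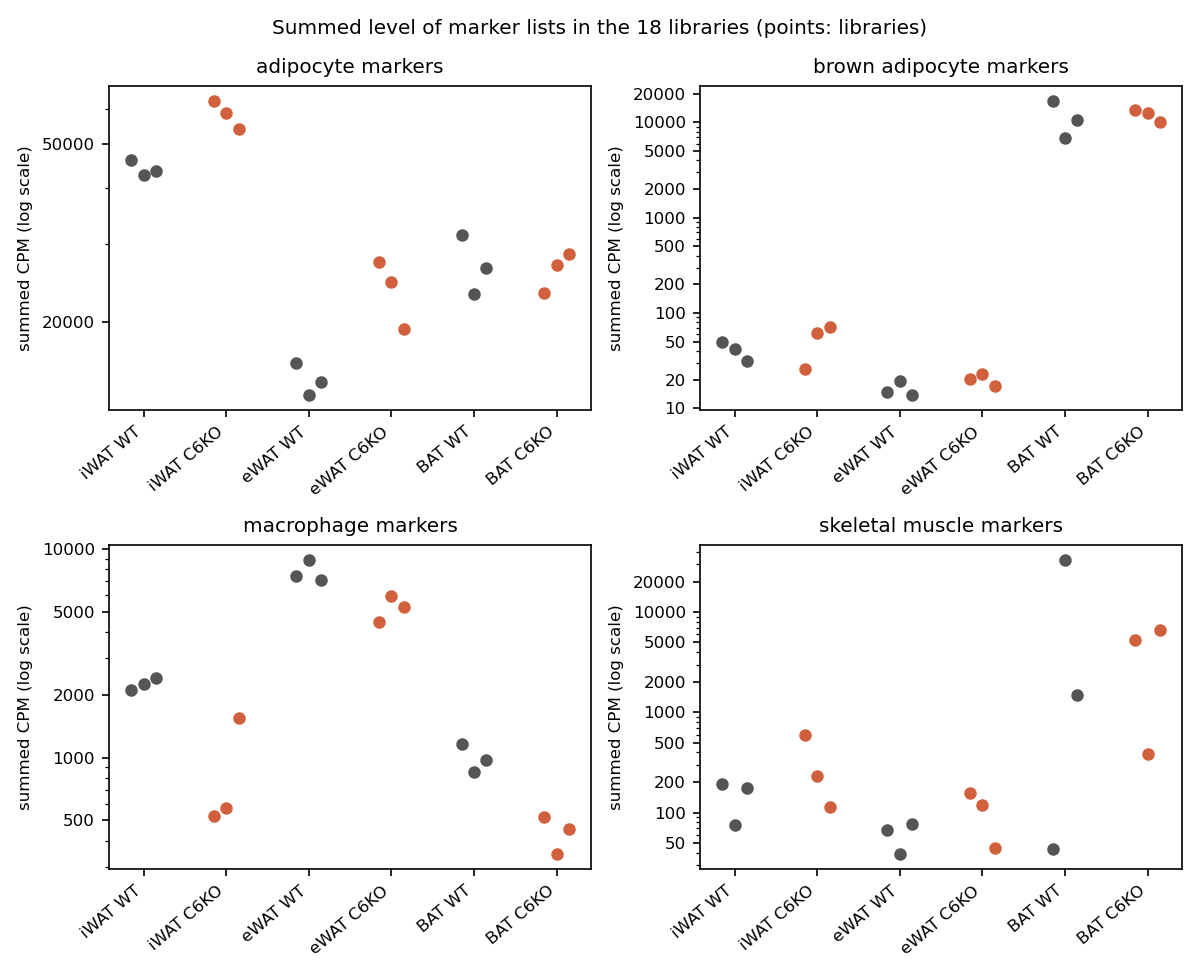
Summed CPM (log scale) of adipocyte, brown adipocyte, macrophage and skeletal muscle markers, with 1 point per library in the 6 groups. Macrophage sums lie lower in C6KO than in WT in every depot, adipocyte sums lie higher in C6KO in both white depots, and BAT WT 2 reaches 33341 CPM of muscle markers.

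Prkar2b was the most abundant of the 9 transcripts in every group when levels were scaled per kilobase (RPKM). In WT iWAT it stood at 268.5 RPKM ± 15.1 (SD, n = 3), followed by Prkaca at 137 ± 7.76 and Pde3b at 66.5 ± 6.45. The receptors Adrb3 (29.6 ± 4.43) and Npr1 (28.0 ± 3.23) overlapped each other, Adcy3 followed at 16.9 ± 2.07 and Adra1a at 6.39 ± 0.130. Adrb1 (1.86 ± 0.315) and Adra2a (0.316 ± 0.0914) were the lowest. In WT eWAT the order was nearly the same, from Prkar2b (107 ± 7.98) to Adra2a (0.279 ± 0.168), but Adcy3 (26.2 ± 5.45) overlapped Pde3b (27.3 ± 0.866) and lay above Adrb3 (13.98 ± 3.68). In WT BAT the order began with Prkar2b (587 ± 122) and Prkaca (205 ± 35.5), with Adrb3 next at 143 ± 14.4. Adrb1 reached 17.0 ± 3.89 RPKM there, and Adra2a stood at 0.0908 ± 0.0240 with 2 to 4 counts per WT library.

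**Figure D2:**
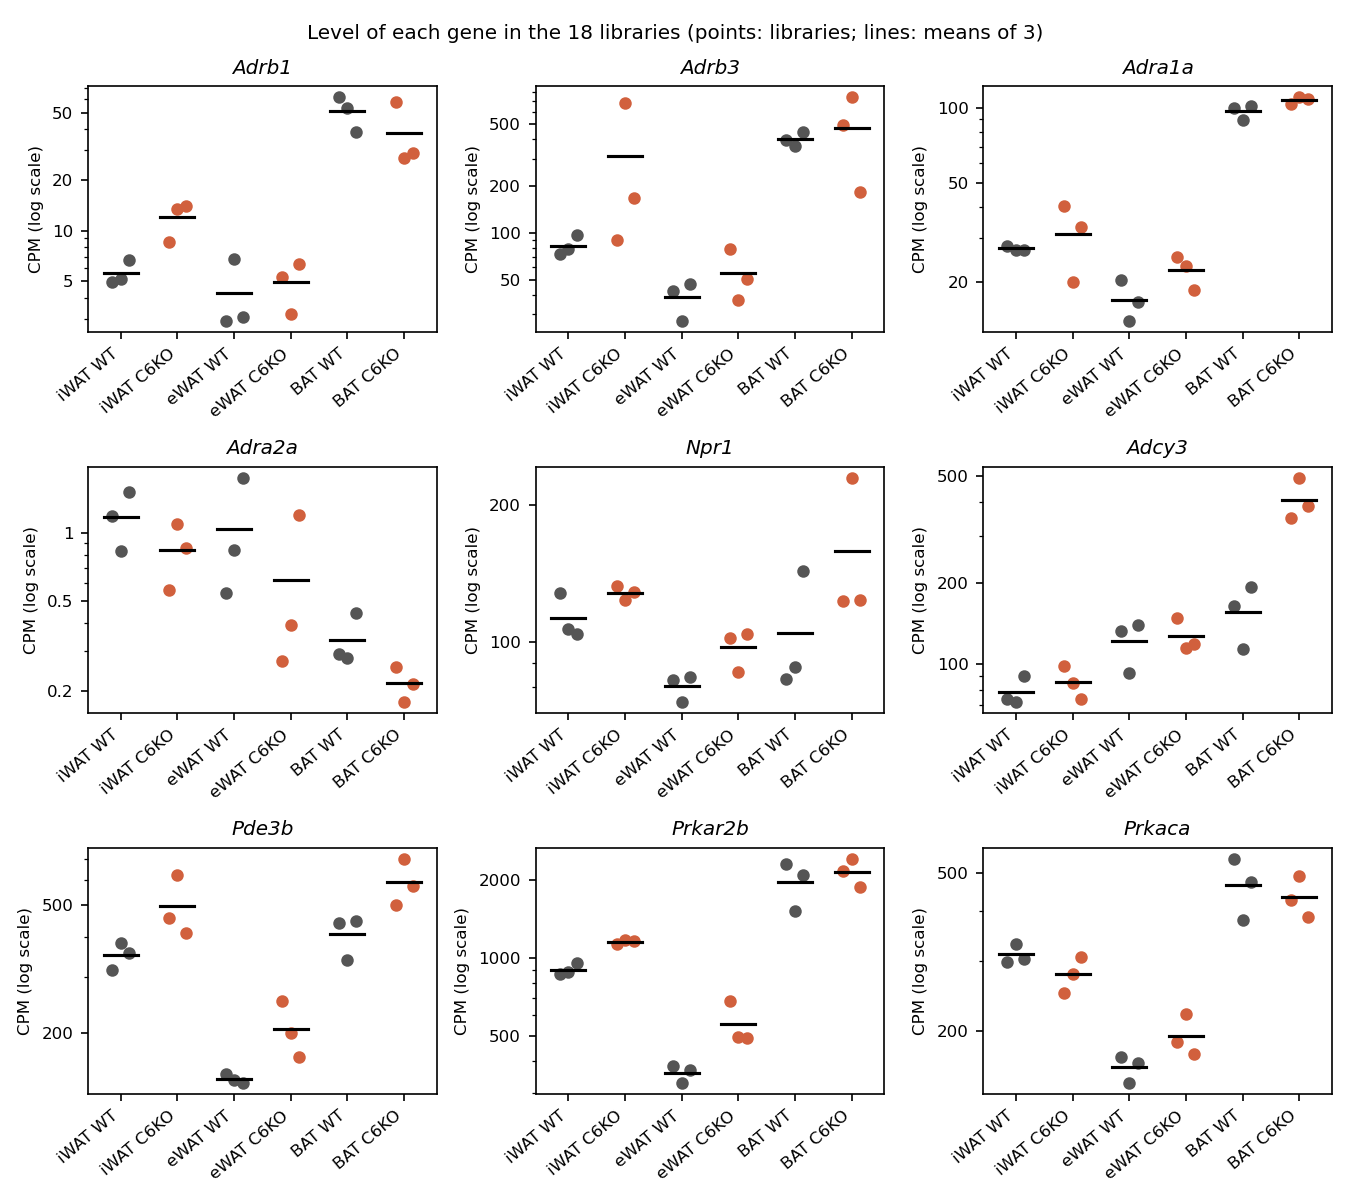
CPM of the 9 genes (log scale) in the 18 libraries, with 1 point per library and a line at the mean of each group of 3. Adcy3 in BAT separates 348 to 492 CPM in C6KO from 113 to 193 in WT, and Adrb3 in C6KO iWAT ranges from 89.9 to 677.

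In WT mice the β-adrenoceptors were the members that differed most between brown and white fat. Adrb1, the receptor that also drives the heart, stood at 61.9, 53.8 and 38.7 CPM in the 3 BAT libraries, at 4.98, 5.17 and 6.72 in iWAT and at 2.92, 6.74 and 3.06 in eWAT. BAT lay above both white depots without overlap and the white depots overlapped. The difference was 9.12-fold against iWAT (log2 3.19, SE 0.382) and 12.1-fold against eWAT (log2 3.59, SE 0.389), with edgeR Benjamini-Hochberg adjusted p of 6.05e-06 and 1.01e-06. Adrb3, the receptor largely limited to adipocytes in rodents, stood at 393, 362 and 442 CPM in BAT, 72.8, 78.6 and 96.5 in iWAT and 42.7, 27.4 and 46.9 in eWAT. It was 4.82-fold higher in BAT than in iWAT (adjusted p = 0.00967, edgeR) and 10.2-fold higher than in eWAT (adjusted p = 0.000672). The iWAT and eWAT libraries did not overlap, but with the spread shared by all groups the log2 difference of -1.08 had an adjusted p of 0.201 in edgeR.

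Adra1a, an α1-adrenoceptor that couples to calcium signals, was also highest in BAT, at 99.7, 89.3 and 102 CPM against 27.9, 27.0 and 26.9 in iWAT and 20.4, 14.01 and 16.6 in eWAT. The 3 depots did not overlap. BAT was 3.55-fold above iWAT and 5.70-fold above eWAT (adjusted p = 1.47e-06 and 2.49e-08, edgeR), and eWAT was 1.61-fold below iWAT (adjusted p = 0.0135). That last call was lost without eWAT WT 2 (log2 -0.56, adjusted p = 0.0729, edgeR). With total counts as the only scaling its log2 difference was -0.54, under the fold minimum. Adra2a ran the other way at a very low level. Its counts were 2, 3 and 4 in WT BAT, 20, 14 and 27 in WT iWAT, and 10, 17 and 33 in WT eWAT. Summed over the 3 libraries and divided by total counts, iWAT held 3.85 times as much as BAT (exact 95% counting interval 1.90 to 8.83) and eWAT 3.74 times (1.84 to 8.57). edgeR called BAT lower than iWAT (adjusted p = 0.0353) and than eWAT (adjusted p = 0.0481). In BAT alone Adra2a was under the filter on low counts, and it entered the fit of 18 libraries through the white depots. A call for BAT could therefore hardly come out as higher. The iWAT call was lost without any 1 of iWAT WT 1, iWAT WT 3 and the 3 BAT libraries, with an adjusted p of up to 0.104. The eWAT call was lost without any 1 of eWAT WT 2, eWAT WT 3 and the 3 BAT libraries, up to 0.243, in DESeq2 (adjusted p = 0.0640) and, in edgeR, with no filter on low counts (0.0647), with the replicate block (0.0552) and with the libraries of these 2 depots alone (0.0631).

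Npr1 showed no call between depots. WT libraries held 82.6, 74.2 and 84.0 CPM in eWAT, 128, 107 and 104 in iWAT, and 83.2, 88.4 and 143 in BAT. The largest difference was eWAT against iWAT, log2 -0.49 (95% confidence interval -0.96 to -0.03), with an adjusted p of 0.0968 in edgeR. The log2 difference of BAT from iWAT was -0.11 and came to 0.03 without BAT WT 1 and 0.00 without BAT WT 2. Adcy3, which makes cyclic AMP, was lowest in iWAT, at 74.0, 72.4 and 89.7 CPM, and stood at 132, 92.5 and 140 in eWAT and at 164, 113 and 193 in BAT. It was 1.54-fold higher in eWAT (adjusted p = 0.0259, edgeR) and 1.99-fold higher in BAT (adjusted p = 0.000822) than in iWAT, while BAT and eWAT overlapped. The eWAT call was lost without any 1 of iWAT WT 1, iWAT WT 2, eWAT WT 1 and eWAT WT 3, with log2 differences of 0.51 to 0.58 and adjusted p of 0.0854 to 0.109.

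The 3 transcripts that act on or below cyclic AMP were lowest in eWAT. Pde3b held 149, 143 and 140.2 CPM in WT eWAT, 314, 381 and 356 in iWAT, and 441, 337 and 447 in BAT. It was 2.43-fold lower in eWAT than in iWAT (adjusted p = 9.54e-05, edgeR) and 2.84-fold higher in BAT than in eWAT (adjusted p = 2.98e-06), and BAT and iWAT overlapped. Prkar2b, the regulatory subunit that predominates in adipocytes, held 381, 329.7 and 368 CPM in eWAT, 863, 879 and 957 in iWAT, and 2300.3, 1511 and 2087 in BAT. The 3 depots did not overlap, with eWAT 2.50-fold below iWAT (adjusted p = 3.80e-05, edgeR) and BAT 2.19-fold above it (adjusted p = 3.97e-05). Prkaca, the catalytic subunit, held 172, 148 and 166 CPM in eWAT, 299, 332 and 304 in iWAT, and 542, 381 and 475 in BAT. It was 1.92-fold lower in eWAT than in iWAT (adjusted p = 0.000167, edgeR) and 2.88-fold higher in BAT than in eWAT (adjusted p = 1.99e-07). BAT against iWAT reached 1.49-fold with an adjusted p of 0.00366, just under the fold minimum of 1.5. It passed that minimum without iWAT WT 2 (log2 0.62) and without BAT WT 2 (log2 0.70).

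A gene was called when its adjusted p over all 15866 genes was below 0.05 and its fold change at least 1.5. By this rule 5 of the 9 genes differed between eWAT and iWAT, 1 higher and 4 lower in eWAT, where 25.7% of all genes were called, 12.8% higher and 12.9% lower. Between BAT and iWAT 6 were called, 5 higher and 1 lower in BAT, against 38.7% of all genes (20.1% and 18.7%), and between BAT and eWAT 7 were called, 6 higher and 1 lower, against 48.6% (25% and 23.6%). The lower gene in both was Adra2a, which passed the filter on low counts only through the white depots. The median log2 difference of the 9 was -0.68, 0.99 and 1.52 in these comparisons, and that of all genes was 0.01, 0.01 and 0.03. The adipocyte marker sum also differed between the WT depots, as given above, and its part in these differences was not tested. The depots were deposited as separate tables, and the BAT libraries were shallower than those of both white depots, so the depot and any library preparation batch cannot be told apart.

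**Figure D3:**
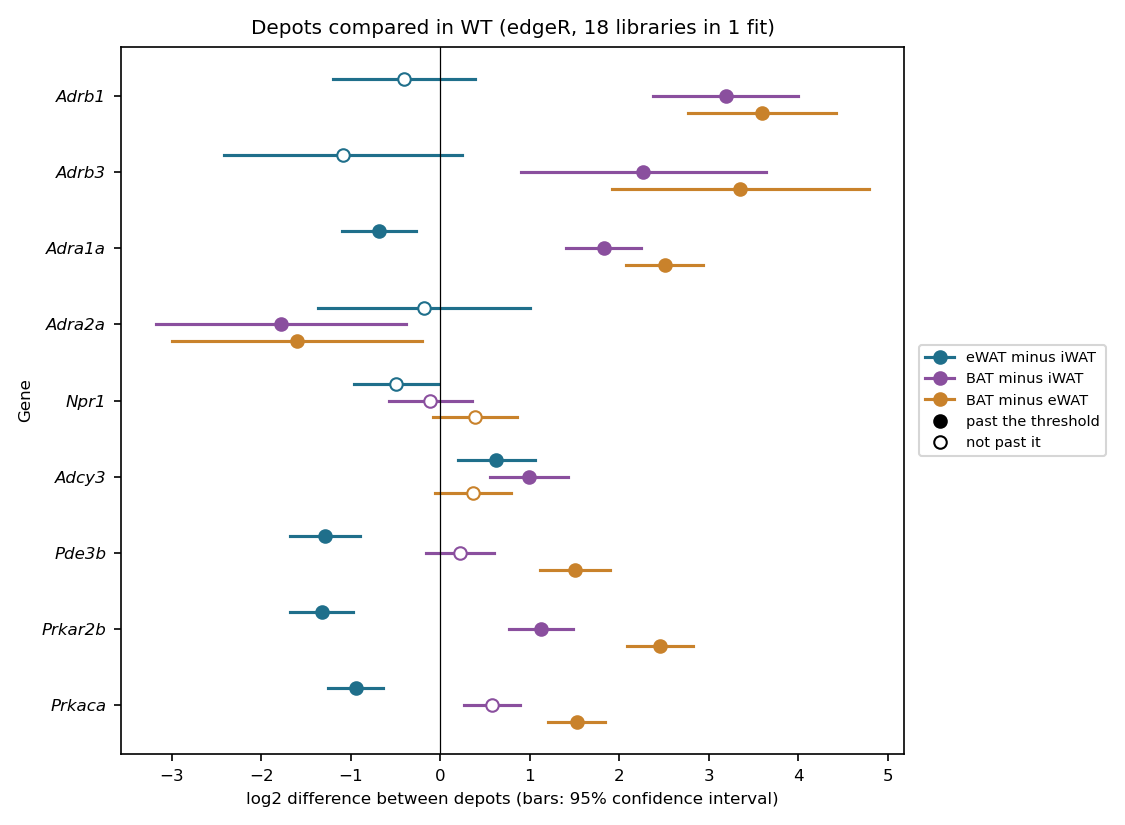
Log2 differences between depots in WT for the 9 genes (edgeR, 18 libraries in 1 fit), with 95% confidence intervals and filled points past the threshold. The β-adrenoceptors and Adra1a lie far above 0 for BAT against both white depots, Adra2a lies below 0, and Pde3b, Prkar2b and Prkaca lie below 0 for eWAT against iWAT.

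In C6KO mice, Adcy3 in BAT was the 1 gene of the 9 called in any depot. The BAT libraries held 164, 113 and 193 CPM in WT (157 ± 40.3, SD, n = 3) and 348, 492 and 388 in C6KO (409 ± 74.2). The lowest C6KO library lay well above the highest WT library. Adcy3 rose 2.64-fold (log2 1.40, SE 0.227, 95% confidence interval 0.89 to 1.91), with an adjusted p of 0.0249 over 13595 genes in edgeR and 2.68e-07 in DESeq2. In that comparison 1.24% of all genes were called and 0.169% were called higher in C6KO. The fold change held at log2 1.24 to 1.62 when any 1 of the 6 libraries was left out. The adjusted p exceeded 0.05 without BAT WT 1 (0.0781), BAT C6KO 1 (0.0822), BAT C6KO 2 (0.122) and BAT C6KO 3 (0.0974), and with the replicate number as a block (0.0598). Without BAT WT 2, the BAT library with the highest muscle marker sum, it was 0.0209 at log2 1.24. The libraries that remained still differed in that sum, with 43.1 CPM in WT 1, 1504 in WT 3 and 5313, 388 and 6633 in C6KO. Cenpo, the gene that overlaps Adcy3, stood at 4.24, 6.55 and 6.28 CPM in WT and 3.71, 5.21 and 2.25 in C6KO BAT (log2 -0.60, adjusted p = 0.555, edgeR). The part of reads from Cenpo in the Adcy3 values was not tested.

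In both white depots the Adcy3 libraries of the genotypes overlapped. C6KO libraries held 98.6, 85.2 and 74.0 CPM in iWAT (log2 0.13, 95% confidence interval -0.20 to 0.46) and 148, 115 and 119 in eWAT (log2 0.07, interval -0.30 to 0.45). The eWAT value turned to -0.09 without eWAT WT 2 and to -0.04 without eWAT C6KO 1. The difference between the C6KO effects was tested as an interaction in 1 fit of all 18 libraries. The effect on Adcy3 was larger in BAT than in eWAT by log2 1.32 (SE 0.287, adjusted p = 0.0487 over 15866 genes, edgeR), in a comparison in which 0.536% of all genes were called. Leaving out 1 library kept the difference between 1.13 and 1.497, but the adjusted p passed 0.05 for each of the 12 libraries except BAT WT 3, reaching up to 0.148. Against iWAT the difference was 1.26 (SE 0.287) with an adjusted p of 0.103 in edgeR and 0.00529 in DESeq2, and 0.183% of all genes were called there. Without BAT WT 3 the adjusted p for iWAT came to 0.0483 in edgeR, at a difference of 1.44.

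Among the β-adrenoceptors, Adrb1 in iWAT held 4.98, 5.17 and 6.72 CPM in WT and 8.52, 13.4 and 13.99 in C6KO. The groups did not overlap, and the estimate was 2.13-fold (log2 1.09, SE 0.249, unadjusted p = 0.00183 in edgeR). It was not called over 14533 genes in edgeR (adjusted p = 0.154) and was called in DESeq2 (adjusted p = 0.00912). Counts behind it were 84 to 120 in WT and 152 to 244 in C6KO libraries. In eWAT, Adrb1 was 5.31, 3.19 and 6.30 CPM in C6KO against 2.92, 6.74 and 3.06 in WT, and the groups overlapped (log2 0.22, and -0.01 without eWAT C6KO 3). In BAT it was 58.2, 27.1 and 28.8 in C6KO against 61.9, 53.8 and 38.7 in WT, also overlapping (log2 -0.42, 95% confidence interval -1.17 to 0.33). The difference between the effects in BAT and iWAT was log2 -1.52 (SE 0.503), with an unadjusted p of 0.00806 and an adjusted p of 0.320 in edgeR.

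Adrb3 values were widely spread among C6KO libraries. In iWAT it was 72.8, 78.6 and 96.5 CPM in WT and 89.9, 677 and 168 in C6KO, so that 1 C6KO library lay inside the WT range and another far above all others. The estimate of log2 1.92 (SE 0.712, adjusted p = 0.260, edgeR) came to 0.65 without iWAT C6KO 2. That library also held the lowest Lep of the iWAT libraries, 1535 CPM against 2994 to 3745 in the other 5, and its part in the Adrb3 value was not tested. In eWAT, Adrb3 was 78.3, 37.2 and 50.2 CPM in C6KO against 42.7, 27.4 and 46.9 in WT (log2 0.51, 95% confidence interval -0.25 to 1.27). In BAT the C6KO libraries held 491, 742 and 184 CPM, 2 above and 1 below all WT libraries (log2 0.26, interval -0.85 to 1.38), and the value without BAT C6KO 2 was -0.20.

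The α-adrenoceptors showed no call. Adra1a held 40.3, 20.04 and 33.4 CPM in C6KO iWAT, on both sides of the WT range of 26.9 to 27.9 (log2 0.20, and -0.03 without iWAT C6KO 1). In eWAT it held 25.3, 23.2 and 18.5 against 20.4, 14.01 and 16.6 (log2 0.40, SE 0.169, adjusted p = 0.257, edgeR). In BAT the values were 103, 111 and 108 against 99.7, 89.3 and 102, which did not overlap but differed by log2 0.16 only (adjusted p = 0.674, edgeR). Adra2a counts in C6KO were 10, 20 and 15 in iWAT and 5, 8 and 23 in eWAT, overlapping WT in both (log2 -0.48 with a 95% confidence interval of -1.60 to 0.64, and -0.73 with -2.22 to 0.76). In BAT each C6KO library held 2 counts of Adra2a, and the gene was not tested there because it was under the filter on low counts. A difference in Adra2a was not detectable in BAT at this depth.

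Npr1 values were close to each other in iWAT, 133, 123 and 129 CPM in C6KO against 128, 107 and 104 in WT (log2 0.19, adjusted p = 0.471, edgeR). In eWAT the C6KO libraries (102, 85.9 and 104) lay above the WT libraries (82.6, 74.2 and 84.0) without overlap, at log2 0.29 (SE 0.113, adjusted p = 0.225, edgeR). In BAT they held 123, 228 and 124 CPM against 83.2, 88.4 and 143, overlapping through BAT WT 3 (log2 0.61, 95% confidence interval -0.11 to 1.32). Endothelial markers, which share the blood vessel compartment where Npr1 is also made, summed to 598 to 690.5 CPM in WT and 843 to 974 in C6KO eWAT, with 8 of 8 estimated higher. In BAT they summed to 982 to 1312 in WT and 1386 to 1464 in C6KO, again with 8 of 8 estimated higher, and in iWAT the genotypes overlapped (5 of 8 higher). Their part in the Npr1 values was not tested.

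Pde3b was estimated higher in C6KO by a like amount in all 3 depots, without overlap and without a call. It held 457, 622 and 410.1 CPM in C6KO iWAT against 314, 381 and 356 in WT (log2 0.51, SE 0.180, adjusted p = 0.228, edgeR). In eWAT it held 251, 199 and 169 against 149, 143 and 140.2 (log2 0.52, SE 0.141, adjusted p = 0.0945, edgeR), which DESeq2 placed at an adjusted p of 0.0151 and a fold under 1.5. In BAT it held 500.1, 697 and 576 against 441, 337 and 447 (log2 0.55, SE 0.193, adjusted p = 0.254, edgeR). The differences between these 3 effects were 0.01 to 0.03 on the log2 scale, and the 95% confidence interval of each reached beyond 0.5 in both directions.

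Prkar2b separated the genotypes without overlap in iWAT, with 1132, 1166 and 1158 CPM in C6KO against 863, 879 and 957 in WT (log2 0.36, SE 0.133, adjusted p = 0.236, edgeR). In eWAT it held 679, 496 and 491 CPM against 381, 329.7 and 368, also without overlap. That estimate was 1.55-fold (log2 0.63, SE 0.147), not called in edgeR (adjusted p = 0.0661) and called in DESeq2 (0.00164) and, in edgeR, with no filter on low counts (0.0400). In BAT the C6KO libraries held 2173, 2403 and 1879 CPM, within or just beyond the WT spread of 1511 to 2300.3 (log2 0.15, 95% confidence interval -0.31 to 0.61). Prkaca gave smaller values of both signs. It held 249, 278 and 306 CPM in C6KO iWAT against 299, 332 and 304 (log2 -0.16), 187, 220.0 and 175 in eWAT against 172, 148 and 166 (log2 0.27, SE 0.114, adjusted p = 0.265, edgeR), and 427, 492 and 386 in BAT against 542, 381 and 475 (log2 -0.08). The BAT value turned to 0.04 without BAT WT 1 and to 0.00 without BAT C6KO 3.

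**Figure D4:**
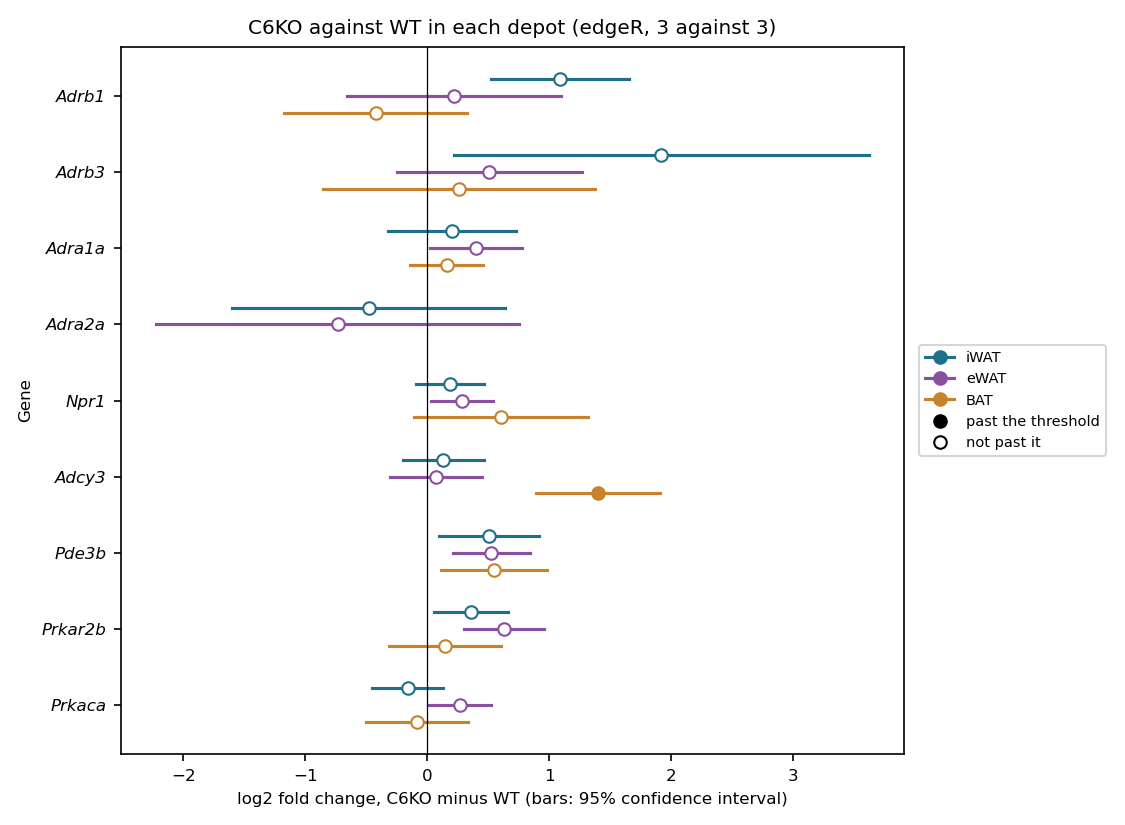
Log2 fold change of C6KO against WT for the 9 genes in iWAT, eWAT and BAT (edgeR, 3 against 3 libraries), with 95% confidence intervals and filled points past the threshold. Adcy3 in BAT is the 1 filled point at 1.40, and Adra2a has no BAT value.

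Counted over the genes, 0 of 9 were called in iWAT, where 0.0275% of all genes were, and 0 of 9 in eWAT (0.746% of all genes). In BAT 1 of the 8 that passed the filter was called (1.24% of all genes). DESeq2 called 1 in each depot, Adrb1, Prkar2b and Adcy3, while it called 4.57%, 4.02% and 3.7% of all genes. At an unadjusted edgeR p under 0.05, iWAT had 4 of the genes higher in C6KO, eWAT 5 and BAT 2, and 0 were lower in any depot. Over all genes 7.25%, 9.81% and 4.56% were higher and 9.29%, 7.82% and 8.64% were lower at that level. The C6KO libraries lay above all WT libraries for 3 of the genes in iWAT, for 4 in eWAT and for 3 in BAT, against 10.9%, 11.6% and 7.44% of all genes. Across the 9 genes the log2 fold change had its median at 0.20 in iWAT and 0.29 in eWAT, and across the 8 tested in BAT at 0.21, and the medians of all genes were 0.03, -0.01 and -0.03. The higher adipocyte marker sum in white depots and the lower macrophage sum in all depots stand beside these values, and their part in them was not tested.

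The C6KO effects on the 9 genes were also set against each other between depots. No gene passed between eWAT and iWAT in edgeR, among the 9 or among all genes (0%), where 869 genes (5.48%) had an unadjusted p under 0.05 and DESeq2 called 14 (0.0848%). None of the 9 had an unadjusted p under 0.05 there, and Prkaca was nearest, with log2 0.43 and an unadjusted edgeR p of 0.0529. Between BAT and iWAT 0 of the 9 were called in edgeR and 1, Adcy3, in DESeq2 (1.27% of all genes), with 2 at an unadjusted p under 0.05, Adcy3 and Adrb1 (9.93% of all genes). Between BAT and eWAT edgeR and DESeq2 each called 1, Adcy3 (2.49% of all genes in DESeq2), with 2 at an unadjusted p under 0.05, Adcy3 and Prkar2b (11.2% of all genes). Prkar2b had a log2 difference of -0.50 (adjusted p = 0.442, edgeR).

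The wider pathway was followed with 116 genes in 14 lists, from other receptors to the targets of cyclic AMP. Each white depot allowed 105 of these to be tested, and BAT 103. The most abundant genes of single lists, by mean RPKM over the 18 libraries, included Gnas (714), the stimulatory G protein, Ucp1 (1426), Npr3 (152), the clearance receptor for natriuretic peptides, and Prkar1a (88.0), another regulatory subunit. Akap1 (61.7) led the anchoring proteins, Pde2a (54.6) the other phosphodiesterases, Adora1 (39.4) the inhibitory receptors, Adcy6 (36.4) the other cyclases and Grk2 (34.8) the desensitising proteins. Atf2 (20.2), Rapgef3 (17.3), Tshr (17.3) and Adra1d (6.65) led further lists. Such means over 18 libraries do not describe single depots. Mean RPKM in iWAT, eWAT and BAT was 1.28, 0.844 and 4277 for Ucp1, and 338, 253 and 1551 for Gnas. For Tshr it was 32.0, 16.3 and 3.49. Medians of the log2 fold change over the listed genes were 0.06 (iWAT), 0.07 (eWAT) and 0.00 (BAT), against 0.03, -0.01 and -0.03 for all genes.

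In eWAT 4 of 105 listed genes rose and 0 fell, where 0.537% of all genes were called higher. Mc2r, the adrenocorticotropic hormone receptor that raises cyclic AMP, held 14.5, 11.2 and 12.8 CPM in WT and 21.1, 21.8 and 27.1 in C6KO (1.83-fold, adjusted p = 0.0445, edgeR). Sucnr1, a succinate receptor that restrains lipolysis, rose from 42.4, 35.5 and 47.5 to 81.4, 64.3 and 68.6 CPM (1.71-fold, adjusted p = 0.0445). Adcy6, the most abundant of the other cyclases, rose from 93.6, 86.9 and 99.8 to 154, 133 and 142 (1.54-fold, adjusted p = 0.0432), and Rapgef3, a cyclic AMP sensor apart from protein kinase A, from 38.2, 34.2 and 38.3 to 72.8, 52.9 and 85.0 (1.91-fold, adjusted p = 0.0468). For each of the 4, every C6KO library lay above every WT library, as for 11.6% of all genes. This adds no support to the calls, which rest on the same libraries. All 4 calls were lost without any 1 of eWAT WT 1, WT 2, WT 3, C6KO 1 and C6KO 3, with total counts as the only scaling, and in the fit of all 18 libraries (adjusted p of 0.107 for Rapgef3 to 0.330 for Sucnr1, edgeR). Calls over all genes in eWAT fell as well, from 111 to between 2 and 33 without 1 of those libraries. They numbered 67 with total counts and 4 in the fit of all 18 libraries. In eWAT the adipocyte marker sum was 19348 to 27263 CPM in C6KO against 13765 to 16241 in WT. The endothelial sum was 843 to 974 against 598 to 690, and the macrophage sum was lower, 4488 to 5923 against 7135 to 8889. Their part in the values of Mc2r, Sucnr1, Adcy6 and Rapgef3 was not tested. Listed genes called numbered 16 without eWAT C6KO 2, 15 with the replicate block and 12 with no filter on low counts. Over all genes the calls in these settings numbered 347, 414 and 321, against 111 in the main fit. At an unadjusted p under 0.05, 27 listed genes were higher and 13 lower in C6KO, against 9.81% and 7.82% of all genes. The higher ones nearest to a call were Tshr (log2 0.67, adjusted p = 0.0533, edgeR), Adcy4 (0.69), Akap1 (0.65), Gnai1 (0.72) and Pde7a (0.53), and the lower ones were Pkib (-1.02), Pde1c (-1.85), Per1 (-0.57), Fos (-0.37) and Adcy7 (-0.39).

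In BAT 0 of 103 listed genes rose and 4 fell, where 1.07% of all genes were called lower in C6KO. Npr3 fell from 679, 817 and 656 to 185, 116 and 110.4 CPM (5.20-fold lower, log2 -2.38, SE 0.250, adjusted p = 0.00432, edgeR), a call that held when any 1 of the 6 libraries was left out. Sucnr1 fell from 22.3, 21.5 and 9.47 to 1.92, 4.58 and 4.50 CPM (4.76-fold lower, adjusted p = 0.0489, edgeR), and that call was lost without any 1 library but BAT WT 3 (up to 0.178) and with the replicate block (0.145). Adcy7, a cyclase strongly made by immune cells, fell from 22.2, 39.3 and 26.7 to 10.7, 11.1 and 10.9 CPM (2.69-fold lower, adjusted p = 0.0299, edgeR), and was not called without BAT WT 3, C6KO 1, C6KO 2 or C6KO 3 (up to 0.139). Pkib, an inhibitor of protein kinase A, had counts of 22, 16 and 10 in the WT libraries and 0, 0 and 1 in the C6KO libraries (adjusted p = 0.0340, edgeR). Pkib passed the filter on low counts through the WT libraries alone, so a call could hardly come out as higher in C6KO. Its summed counts, 48 and 1, gave a ratio of 51.5 per total count with an exact 95% counting interval of 8.82 to 2077, and the call was lost without any 1 library but BAT WT 2 (up to 0.180) and with the replicate block (0.0758). Lep, made mainly by white adipocytes, stood at 398, 536 and 341 CPM in WT BAT and 21.1, 42.2 and 61.8 in C6KO BAT, and macrophage markers were lower in C6KO as well. Their part in the values of Npr3, Sucnr1, Adcy7 and Pkib was not tested.

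Npr3 and Sucnr1 were not called lower in either white depot. Npr3 was 2489, 1360 and 1891 CPM in C6KO iWAT against 1687, 1846 and 2046 in WT (log2 0.05, adjusted p = 0.939, edgeR), with overlap, and 1369, 1066 and 699 in C6KO eWAT against 685, 557 and 650.1 in WT (log2 0.73, adjusted p = 0.135, edgeR). Sucnr1 in iWAT was 164, 115 and 101 in C6KO against 94.0, 74.1 and 94.6 in WT (log2 0.54, adjusted p = 0.234, edgeR). The C6KO effect in BAT differed from that in both white depots for both genes (adjusted p between 0.000584 and 0.0110, edgeR interaction test). For Sucnr1 against iWAT that call was lost with the replicate block (log2 -2.73, adjusted p = 0.0656) and with the libraries of these 2 depots alone (log2 -2.79, adjusted p = 0.0840).

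In BAT 13 of 103 listed genes were higher and 9 lower at an unadjusted p under 0.05, against 4.56% and 8.64% of all genes. Those with the smallest p on the higher side were Pde7b (log2 0.85), Pde4a (0.52), Grk3 (0.61), Gipr (1.28) and Prkar1b (0.74). On the lower side they were Grk5 (-0.58), Arrb2 (-0.65), Maoa (-1.001), Fos (-2.57) and Tshr (-0.95). The smallest adjusted p among these 10 was 0.121, for Grk5, in edgeR. In iWAT 0 of 105 listed genes were called in edgeR and 8 in DESeq2, against 0.0275% and 4.57% of all genes. At an unadjusted p under 0.05, 15 were higher and 8 lower in C6KO, against 7.25% and 9.29% of all genes. Those with the smallest p were Akap1 (log2 0.74, adjusted p = 0.154, edgeR), Pck1 (1.19), Slc22a3 (0.57), Gcgr (1.23) and Adcy5 (0.85), and on the lower side Rgs2 (-1.55), Adcy7 (-1.42), Pkib (-1.77), Adcy9 (-0.34) and Arrb2 (-0.47). For Rgs2, Adcy7 and Pkib the C6KO library nearest to WT was iWAT C6KO 3, at 19.4, 55.45 and 2.24 CPM, and that library also held the highest macrophage sum of the C6KO iWAT libraries, 1552 CPM against 526 and 573. Without it 14 listed genes and 1278 of all genes were called in iWAT, where the full comparison called 0 and 4. The part of the macrophage markers in these values and calls was not tested.

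**Figure D5:**
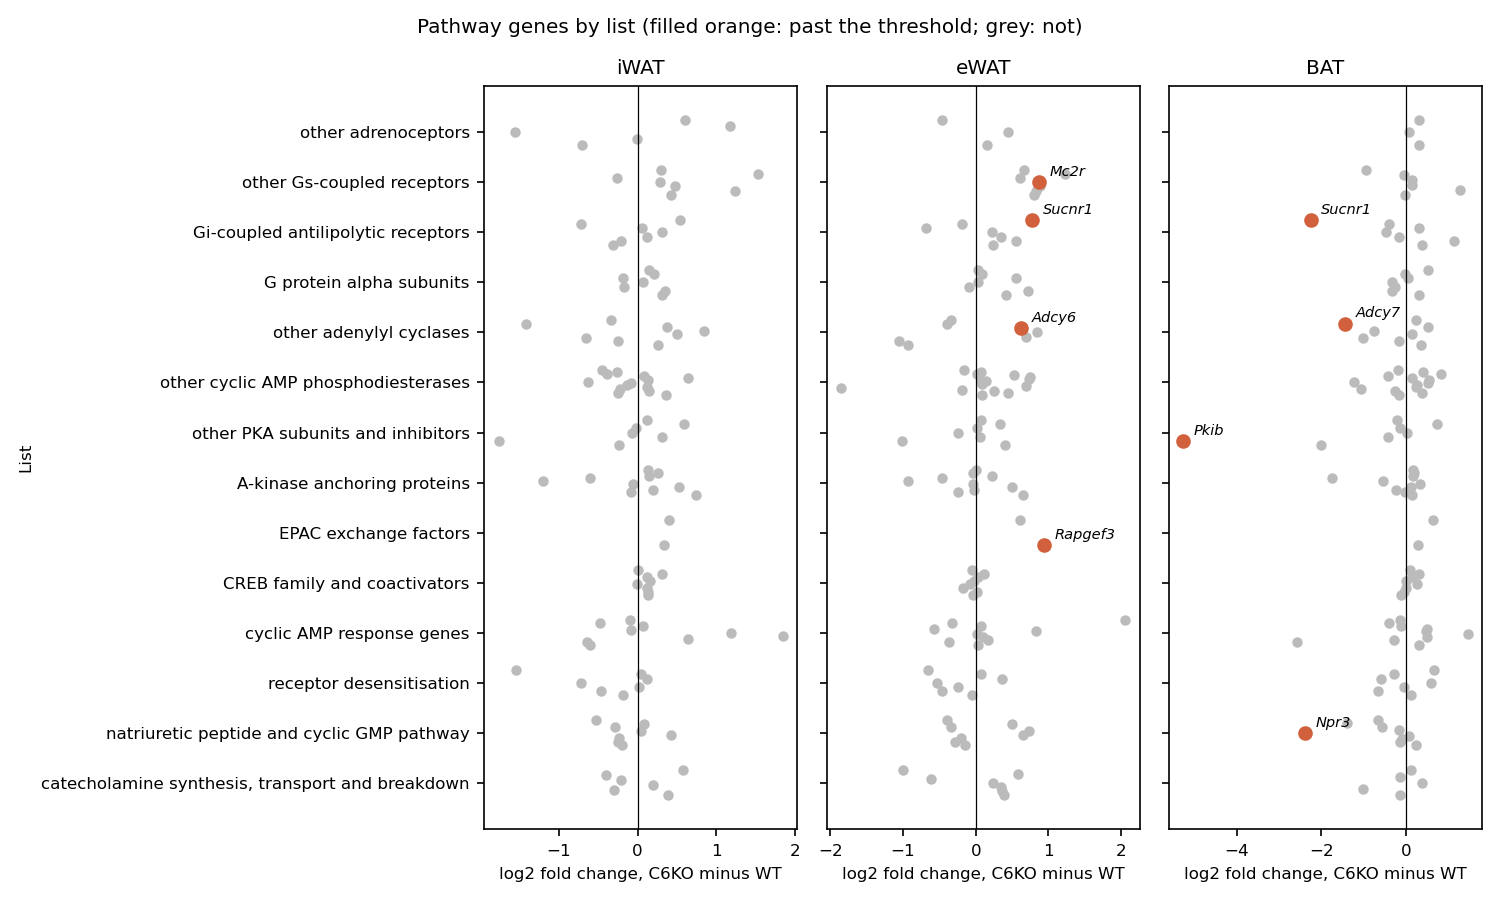
Log2 fold change of C6KO against WT for the tested pathway genes by list (rows) in iWAT, eWAT and BAT, with called genes in orange and named. The called genes are Mc2r, Sucnr1, Adcy6 and Rapgef3 in eWAT, all above 0, and Npr3, Sucnr1, Adcy7 and Pkib in BAT, all below 0. The BAT position of Pkib rests on 1 count in C6KO and is no measure of size.

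The genes whose levels followed each of the 9 most closely were listed over the 18 libraries, after the mean of each depot was removed, among 13096 genes. Pearson's r is a description here, since the libraries share depot, genotype and depth. For Adcy3 they were Sgpl1 (r = 0.924) and Slc25a51 (0.894), and for Prkar2b they were Prxl2a (0.951) and Lonp2 (0.927). Pde3b was followed by Acadsb (0.931) and Dpyd (0.922), Adrb3 by Ipo7 (0.916) and Slc25a44 (0.871), and Prkaca by Tmem135 (0.862) and Ppp2r5a (0.833). Adra1a was followed by Tgm2 (0.876) and Sptlc3 (0.857), Npr1 by Fgd5 (0.861) and Arhgap31 (0.854), Adrb1 by Zbtb37 (0.801) and Gm9895 (0.780), and Adra2a by AW554918 (0.745) and Gas6 (0.744). Among the 9 themselves, Pde3b and Prkar2b had the highest r (0.797) and Npr1 and Adcy3 the next (0.716), while Adra1a and Adra2a had the lowest (-0.669).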

How the data were processed

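RNA-seq of iWAT, eWAT and BAT from WT and C6KO mice was analysed from the counts the authors deposited, 1 table per depot. Per the study's methods, poly(A) RNA was sequenced on an Illumina NextSeq, and the authors aligned reads to mm10 with STAR and counted reads on exons with HOMER, keeping 1 transcript per gene. Versions, annotation and strandedness are not given in the sources used here. Values are whole-number counts per gene without normalization, for 25124 genes. Column names repeat between the tables, so the depot was taken from the table. No value column was left without a sample. For 2619 genes the transcript differs between tables, and for the 9 genes examined it does not.

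The main test was edgeR 4.0.16 (limma 3.58.1, R 4.3.3) with quasi-likelihood, robust, filterByExpr and TMM, per depot for C6KO against WT and in 1 fit of 18 libraries with 6 group means for depots and interactions. The interaction asks whether the C6KO effect differs between depots. Calls needed a Benjamini-Hochberg adjusted p below 0.05 over all genes tested and a fold of at least 1.5. CPM used TMM factors over the 18 libraries, and RPKM divided CPM by exon length. Precision of low genes is limited by counting error, and BAT had the lower depth. Counting intervals cover counting error only. p-values measure the spread between libraries.

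Alternatives were DESeq2 1.42.0, its size factors in edgeR, total counts, no filter or at least 10 counts in every library, no fold minimum, 18 libraries or the libraries of 2 depots in 1 fit, exon length as an offset, a replicate block and leaving out each library. The replicate block was the replicate number within a depot, and genotype together with number in fits across depots. The labels state neither pairing. Tests were tested on simulated data with large changes in genes of many counts, which does not cover small changes or low counts. Named genes were all 9 members, called pathway genes, the 5 with the smallest p per direction below 0.05 unadjusted, the most abundant per list (1 of these is not reported here) and the 2 most similar per member. The members and lists were chosen with earlier results of these data known. RefSeq promoters and GENCODE vM21 overlaps were read by script. Figures used matplotlib 3.10.9 in Python 3.11.15.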

Additional observations from a re-analysis of the deposited data

Results flagged for a closer look

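The C6KO effect differed between depots, by the edgeR interaction test with Benjamini-Hochberg adjustment over 15866 genes, for 3 genes of the pathway. Over all genes 0.183% were called between BAT and iWAT and 0.536% between BAT and eWAT. For Adcy3 it was larger in BAT than in eWAT by log2 1.32 (adjusted p = 0.0487), and the difference from iWAT was not called (log2 1.26, adjusted p = 0.103). For Sucnr1 it was lower in BAT than in iWAT by log2 -2.78 (adjusted p = 0.0110) and than in eWAT by -3.02 (adjusted p = 0.00383). For Npr3 it was lower in BAT than in iWAT by -2.43 (adjusted p = 0.00804) and than in eWAT by -3.12 (adjusted p = 0.000584). The Sucnr1 and Npr3 differences kept an adjusted p below 0.05 when any 1 of the 12 libraries behind each was left out, and the Adcy3 difference did so for 1 of 12. With the replicate block and with the libraries of the 2 depots alone, the Sucnr1 difference between BAT and iWAT had adjusted p of 0.0656 and 0.0840. With the 2 depots alone, the Adcy3 difference had 0.0561. In BAT the C6KO libraries lay below all WT libraries for Sucnr1 and Npr3 and above them for Adcy3. The tests rest on the same libraries, so this adds no support to them. Lep moved in the same direction as Sucnr1 and Npr3 in BAT (log2 -3.35, adjusted p = 0.0146, edgeR) and its log2 difference was -0.20 in iWAT and 0.53 in eWAT, neither called. Its part was not tested.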

How the results depend on the processing

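Of the 9 genes, DESeq2 called 1 in iWAT and 1 in eWAT where edgeR called 0, and 1 in the interaction of BAT and iWAT where edgeR called 0. In eWAT 1 (Prkar2b) was also called with no filter on low counts. Only the libraries of BAT and eWAT in the fit gave 0 in their interaction in place of 1 (Adcy3, adjusted p = 0.0561, edgeR). Leaving out 1 library gave 0 to 1 called in BAT, 0 to 1 in the interaction of BAT and iWAT, and 0 to 1 in that of BAT and eWAT. No setting turned the direction of a called value of the 9 genes. Away from leaving out a library, the direction turned for 2 values near 0. The Pde3b effect in eWAT against iWAT, 0.0182, came to -0.00966 in DESeq2 and -0.00960 with its size factors in edgeR, and the Adra1a effect in BAT against iWAT came to 0.0125 with total counts. Leaving out 1 library turned further values that were not called, with log2 ranges of -0.0302 to 0.439 (Adra1a in iWAT), -0.00524 to 0.730 (Adrb1 in eWAT), -0.0870 to 0.186 (Adcy3 in eWAT), -0.205 to 0.649 (Adrb3 in BAT), -0.183 to 0.0417 (Prkaca in BAT), -0.764 to 0.127 (Adra2a, eWAT against iWAT), -0.400 to 0.0288 (Npr1, BAT against iWAT), and, for the difference between the C6KO effects in eWAT and iWAT, -0.222 to 0.0519 (Adcy3), -0.0371 to 0.427 (Adra1a), -1.134 to 0.333 (Adra2a) and -0.146 to 0.214 (Pde3b). For BAT against iWAT the ranges were -0.285 to 0.179 (Adra1a), -0.379 to 0.0825 (Adra2a), -0.105 to 0.226 (Pde3b) and -0.0582 to 0.191 (Prkaca), and for BAT against eWAT -0.745 to 0.125 (Adrb3), -0.490 to 0.976 (Adra2a), -0.0489 to 0.602 (Npr1) and -0.125 to 0.177 (Pde3b).

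Counts of called pathway genes moved with the tool. edgeR and DESeq2 called 0 and 8 of them in iWAT, 4 and 18 in eWAT, 4 and 7 in BAT. The fit of all 18 libraries called 3, 0 and 5 of them, and 366, 4 and 525 of all genes. Over all genes the calls of edgeR and DESeq2 numbered 168 and 547 for BAT, 111 and 619 for eWAT, 4 and 666 for iWAT. With 3 libraries per group and lower depth in BAT, low transcripts such as Adra2a are the least precise.

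The main tests treated all libraries as independent, since the labels do not name the animals. Correlations of the deviations of same-numbered WT and C6KO libraries were -0.458 to -0.148 in BAT, -0.0816 to 0.146 in eWAT and 0.0234 to 0.0713 in iWAT. Those of same-numbered libraries of different depots were -0.0655 to 0.2185 in WT and -0.0649 to 0.209 in C6KO. Their means were 0.065 in WT and 0.042 in C6KO. For differently numbered libraries the means were -0.032 (range -0.183 to 0.129) and -0.021 (-0.246 to 0.160), respectively. The ranges overlap, so whether same-numbered libraries of different depots shared an animal cannot be told. With the replicate block, 1 of the 9 was called in eWAT (Prkar2b, adjusted p = 0.0370, edgeR), 0 in BAT and 1 in the interaction of BAT and iWAT (Adcy3, adjusted p = 0.0454), and 62, 414 and 113 genes of all were called in iWAT, eWAT and BAT. Of the pathway genes 0, 15 and 2 were called. The cause of these shifts was not tested.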
